A study of Mus musculus with 72 samples.

Results

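Resting mouse melanoma cells whose Cdh1 gene, which encodes E-cadherin, had been deleted by Cre (∆Ecad) were compared with vector-carrying melanoma cells without Cre (Ecad), using 11 mock-treated RNA-seq libraries of the 72 in the series. The ∆Ecad side held 6 libraries, 3 each of the female lines 1057 and 1064, both labelled Tyr::NRASQ61K/°, Cdkn2a-/-, Tyr::CreA/° and Cdh1dF/dF, GRPRpos and carrying no plasmid. They are called the Cre lines. The Ecad side held 5 libraries, called the vector lines. Of these, 3 came from 1181-Ctrl, a male line labelled Tyr::NRASQ61K/° and Cdkn2a-/-, without Cre (°/°), GRPRneg and carrying CMV::tGFP, a plasmid for turbo green fluorescent protein. Its label still lists Cdh1dF/dF. The remaining 2 came from 1014-Ctrl, a female GRPRneg line labelled only with Tyr::NRASQ61K/° and CMV::tGFP. The series as a whole stimulated 6 lines with gastrin-releasing peptide (GRP) or blocked its receptor (GRPR) with the antagonist RC-3095 (RC). Here all cells had been kept for 18 h in 0.5% serum to a confluency of 80% and then given 0.1% DMSO for 4 h. All lines carry oncogenic NRAS under the tyrosinase promoter, which is active in pigment cells. Cre, the Cdh1 deletion, the absence of a plasmid and natural expression of Grpr all lie on the same side of the comparison, and the vector lines differ from each other in labelled genotype and sex, so each labelled genotype on that side is 1 line. These differences and line identity cannot be told apart.

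E-cadherin is the adhesion receptor of epithelial adherens junctions and also joins melanocytes to the keratinocytes around them. Its cytoplasmic tail binds β-catenin, p120-catenin and plakoglobin, and through α-catenin the junction is anchored to actin. In melanoma the loss of E-cadherin is known to accompany detachment from keratinocytes, and β-catenin that is not held at junctions can act with TCF and LEF factors in the Wnt pathway. The comparison addresses which genes differ between melanoma cells with and without the adhesion receptor before any GRPR ligand is added.

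The labels were checked on the deleted gene first. Cdh1 (ENSMUSG00000000303, chromosome 8, 106603351 to 106670246 in GRCm38) stood at 0, 0.0306 and 0 CPM in 1057, 0, 0.0518 and 0.0335 CPM in 1064, 17.6, 23.6 and 16.7 CPM in 1181-Ctrl, and 3.38 and 2.03 CPM in 1014-Ctrl (CPM, the count relative to the library total scaled by TMM). No Cre-line library held more than 1 read of Cdh1, whereas each library of 1181-Ctrl held at least 366. The 1014-Ctrl level was far below that of 1181-Ctrl, and the vector lines did not overlap each other. Grpr, on the X chromosome, was at 166 to 254 CPM of the raw total over the 12 libraries of 1057, at 393 to 1171 CPM in 1064, and at most at 0.101 CPM in 1181-Ctrl. Cdkn2a, which encodes the INK4A and ARF tumour suppressors and is labelled as deleted in 3 of the 4 lines, was at 4.31 CPM in 1057, 7.02 CPM in 1064, 1.87 CPM in 1181-Ctrl and 75.4 CPM in 1014-Ctrl, so reads remained where a deletion is labelled. Which part of the gene was removed is not given in the sources used here, and reads outside it check nothing. Xist, the RNA of the inactive X chromosome, and 4 Y-linked genes followed the labelled sex in all 11 libraries. The library labelled 1014-Ctrl mock 2 had 67.7 CPM of the Y-linked Ddx3y, 50.6 CPM of Grpr and 23.9 CPM of Cdh1 (CPM of the raw total), against 0, 0 and at most 3.51 CPM in the other 2 mock libraries of its line. Over 11 libraries of the transfected line 1181-Grpr, Ddx3y was at 40.6 to 67.2 CPM, Grpr at 8.97 to 87.6 CPM and Cdh1 at 10.3 to 26.9 CPM. The library labelled 1181-Grpr GRP+RC 2 was not among them, with 0 CPM of Ddx3y and Grpr and 4.79 CPM of Cdh1. Why these 2 libraries go against their labels was not tested. In bulk RNA fewer cells that express a gene and less RNA per cell cannot be told apart. A mixture of cells therefore cannot be read from these levels. The library labelled 1014-Ctrl mock 2 was left out of the comparison, and counts with it kept are given with the results. A call lost with it kept rests on a library that goes against its label.

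**Figure D1:**
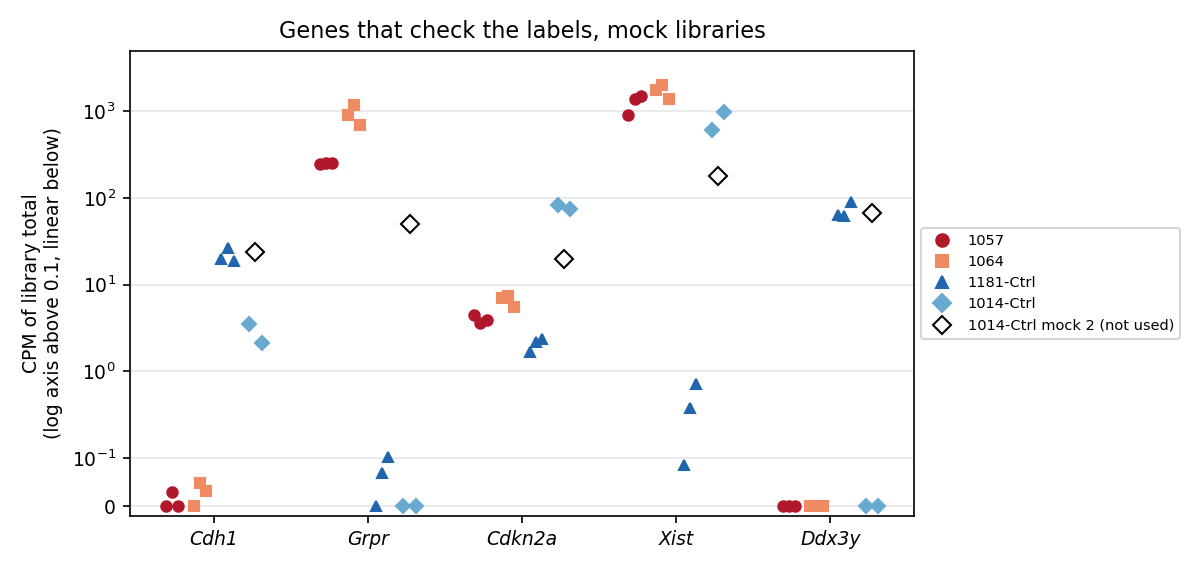
Level in each mock library of the genes that check the labels (CPM of the raw library total, log axis above 0.1 and linear below, one marker per library, shape and colour giving the line). Cdh1 lies at or near 0 in all 6 Cre-line libraries and above 2 CPM in the 5 vector-line libraries, while 1014-Ctrl mock 2 (open marker) stands apart from the other 2 libraries of its line in all 5 genes.

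Library totals ran from 19714679 to 36165848 counted reads, so 3 reads, taken as the floor of detection, equalled 0.083 to 0.152 CPM. Intervals and floors of this kind cover counting error only. Replicate libraries are labelled 1 to 3 within a line. The paper states that its cell culture experiments were repeated as independent biological replicates. The library labels themselves do not say which culture each library came from. The p-values between lines measure the spread between these libraries, and how much of that spread is technical was not tested. The 1057 libraries were the most alike (chi-square per degree of freedom 2.57 to 9.09 between pairs), and those of 1064 (79.3 to 97.1) and 1181-Ctrl (36.9 to 93.4) varied far more. Of 7 melanocyte markers, Mitf stood at 359 CPM or more, Sox10 at 734 CPM or more and Tyr at 864 CPM or more in every library. Tyrp1 was at 1.09 to 3.56 CPM in 1181-Ctrl, 83.5 to 93.1 CPM in 1057 and 1405 CPM or more in 1064 and 1014-Ctrl. Pmel, Mlana and Dct, given below, also varied between lines.

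With lines as the units, no gene separated the sides after correction for multiple tests. Counts were summed per line and 14808 autosomal genes were tested with edgeR, 2 lines against 2. The number that passed an adjusted p of 0.05 and differed by more than 1 on the log2 scale was 0 (0% higher and 0% lower), with a lowest adjusted p of 0.399. At an unadjusted p under 0.05 there were 1476 genes (9.97%), 830 higher (5.61%) and 646 lower (4.36%) in the Cre lines. DESeq2's Wald test on the same sums called 1034 genes (596 higher and 438 lower) and limma-voom with the line as a random block called 280 (160 higher and 120 lower), so the count differed between methods. An exact permutation of 2 lines against 2 cannot give a two-sided p below 0.333 for any single gene.

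A gene is called separated here when each of the 4 pairs of a Cre line and a vector line differed in the same direction at an adjusted p under 0.05 (edgeR's quasi-likelihood test over libraries, Benjamini-Hochberg) and by more than 1 on the log2 scale. This held for 612 genes higher (4.13%) and 505 lower (3.41%) in the Cre lines, 534 and 424 of them protein-coding. In 602 and 481 of them, respectively, all 6 Cre-line libraries also lay on one side of all 5 vector-line libraries. The wider criterion that both line means of one side exceeded both of the other was met by 3274 genes higher (22.1%) and 3264 lower (22%), and all libraries lay apart for 1843 (12.4%) and 1493 (10.1%). Single pairs of lines differed in 12.9% to 19.2% of genes per direction. Of the 1117 separated genes (7.54%), 848 had an unadjusted p under 0.05 with lines as units (edgeR). They were chosen on the same counts, so this number is no separate support, and no gene passed after adjustment. With the library labelled 1014-Ctrl mock 2 kept under its label, 599 genes were higher and 607 lower, of which 549 and 470 were among those above.

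The split between higher and lower genes was not the same on the authors' TPM values as on the counts. With DESeq2's size factors in place of TMM 610 genes were higher and 507 lower. With TMM the median gene differed by -0.0155 on the log2 scale between the sides, and without scaling by -0.2203. On the authors' TPM values (log2 of TPM plus 1, median gene -0.2441) the split turned toward lower genes, with 323 higher and 466 lower genes separated, 2013 and 5233 with line means apart, and 1025 and 2793 with all libraries apart. After the library medians were set to 0, which was decided on once the data had been seen, the splits were 513 and 240, 4317 and 2459, and 2564 and 1080. The sign of the mean over the pairs was the same for each of the 89 separated genes taken by the naming rule under all of the 23 alternative settings in which it could be fitted. Single pairs turned for Ednrb with 1014-Ctrl mock 2 kept (-1.11) and, on TPM with library medians set to 0, for Cgn (0.28) and Fgf9 (0.03).

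Among protein-coding genes at 10 CPM or more on the higher side, the 15 with the widest gap in each direction were taken, and all but 1 are described next. They were picked for that gap, so their size is a description. Of the genes higher in the Cre lines, 6 of those described encode receptors or channels of the cell surface. S1pr3 (chromosome 13, 51408639 to 51422797), a G protein-coupled receptor for sphingosine 1-phosphate, was at 232, 192 and 201 CPM in 1057, 419, 626 and 596 CPM in 1064, 1.34, 0.0303 and 0.0457 CPM in 1181-Ctrl, and 0.114 and 0 CPM in 1014-Ctrl. All Cre-line libraries exceeded 190 CPM and no vector-line library exceeded 1.4 CPM. Tnfrsf1b, the second receptor for tumour necrosis factor, was at 413, 412 and 395 CPM in 1057, 133, 185 and 165 CPM in 1064, 1.11, 0.848 and 0.959 CPM in 1181-Ctrl, and 1.03 and 0.738 CPM in 1014-Ctrl, a mean log2 fold change of 8.11 (7.37 to 8.84 over the 4 pairs, largest edgeR adjusted p = 9.13e-09). Ednra, the endothelin A receptor, stood at 55.8, 54.9 and 56.5 CPM in 1057, 9.19, 23.1 and 10.3 CPM in 1064, 0.0764, 0 and 0.0457 CPM in 1181-Ctrl, and 0 and 0.0369 CPM in 1014-Ctrl. Its low side never exceeded 2 reads, and for such genes no fitted fold change is given because it depends on the prior count. Ackr4, a chemokine scavenger receptor, averaged 21.2 ± 1.13 CPM in 1057, 28 ± 23.9 CPM in 1064, 0.137 ± 0.119 CPM in 1181-Ctrl and 0.0565 ± 0.0277 CPM in 1014-Ctrl (SD, n = 3 libraries per line and 2 for 1014-Ctrl, here and below). Grik1, a kainate-type glutamate receptor subunit, was at 40.7, 44 and 47.1 CPM in 1057, 44, 259.6 and 43.1 CPM in 1064, 0, 0 and 0.0457 CPM in 1181-Ctrl, and 0.076 and 0.0738 CPM in 1014-Ctrl, with 1064 mock 2 high among its replicates. Piezo2, a mechanically gated channel, averaged 22.6 ± 1.7 CPM in 1057, 18.1 ± 9.05 CPM in 1064, no reads in 1181-Ctrl and 0.0553 ± 0.0782 CPM in 1014-Ctrl.

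The other genes with the widest gaps upward encode adhesion, secreted and intracellular proteins. Cdh6, a classical cadherin of kidney and neural crest, was at 92.9, 89.2 and 96.1 CPM in 1057, 5.99, 9.69 and 16.7 CPM in 1064, 0.0382, 0 and 0 CPM in 1181-Ctrl, and 0 and 0.0369 CPM in 1014-Ctrl. It was thus present in both Cre lines, at a higher level in 1057 than in 1064, and at no more than 1 read in the vector lines. Dchs2, a large cadherin-related protein, averaged 19 ± 0.428 CPM in 1057, 21.7 ± 17.4 CPM in 1064, 0.0101 ± 0.0175 CPM in 1181-Ctrl and 0.019 ± 0.0269 CPM in 1014-Ctrl. Igfbp7, a secreted protein that binds insulin-like growth factors, stood at 55.5, 55.2 and 55.6 CPM in 1057, 28.2, 31.1 and 22.9 CPM in 1064, 0, 0.0303 and 0 CPM in 1181-Ctrl, and 0 CPM in both libraries of 1014-Ctrl. P3h4, which acts in collagen modification, averaged 15.8 ± 0.535 CPM in 1057, 36.3 ± 6.77 CPM in 1064, 0.0505 ± 0.0875 CPM in 1181-Ctrl and 0.019 ± 0.0269 CPM in 1014-Ctrl, and the carboxypeptidase M gene, spelled Cpm like the unit, averaged 77.5 ± 2.55 CPM in 1057, 26.9 ± 17.4 CPM in 1064, 0.164 ± 0.175 CPM in 1181-Ctrl and no reads in 1014-Ctrl. Lmo2, a LIM-domain adaptor of transcription complexes best known from blood progenitors, was at 844, 852 and 817 CPM in 1057, 147, 576 and 203 CPM in 1064, 0.229, 0.333 and 0.822 CPM in 1181-Ctrl, and 0.19 and 0.0738 CPM in 1014-Ctrl. Its level in 1064 mock 2 was well above the other libraries of that line, and still every Cre-line library lay above 140 CPM. Slc6a17, a transporter of synaptic vesicles, was at 177, 172 and 163 CPM in 1057, 127, 126 and 181 CPM in 1064, 0.229, 0.606 and 0.594 CPM in 1181-Ctrl, and 0.798 and 0.738 CPM in 1014-Ctrl, a mean log2 fold change of 8.01 (7.55 to 8.46 over the 4 pairs, largest edgeR adjusted p = 8.39e-08). It had the lowest unadjusted p of the 30 genes with lines as units (3.93e-05 by edgeR), and the line means within each side differed little. The 30 genes were picked for their gap in these same counts, so this p is a description. After adjustment no gene passed with lines as units (lowest adjusted p 0.399 by edgeR). Lin7a, a scaffold protein of cell polarity complexes, averaged 46 ± 4.05 CPM in 1057, 13.3 ± 3.41 CPM in 1064, 0.0303 ± 0.0525 CPM in 1181-Ctrl and no reads in 1014-Ctrl.

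**Figure D2:**
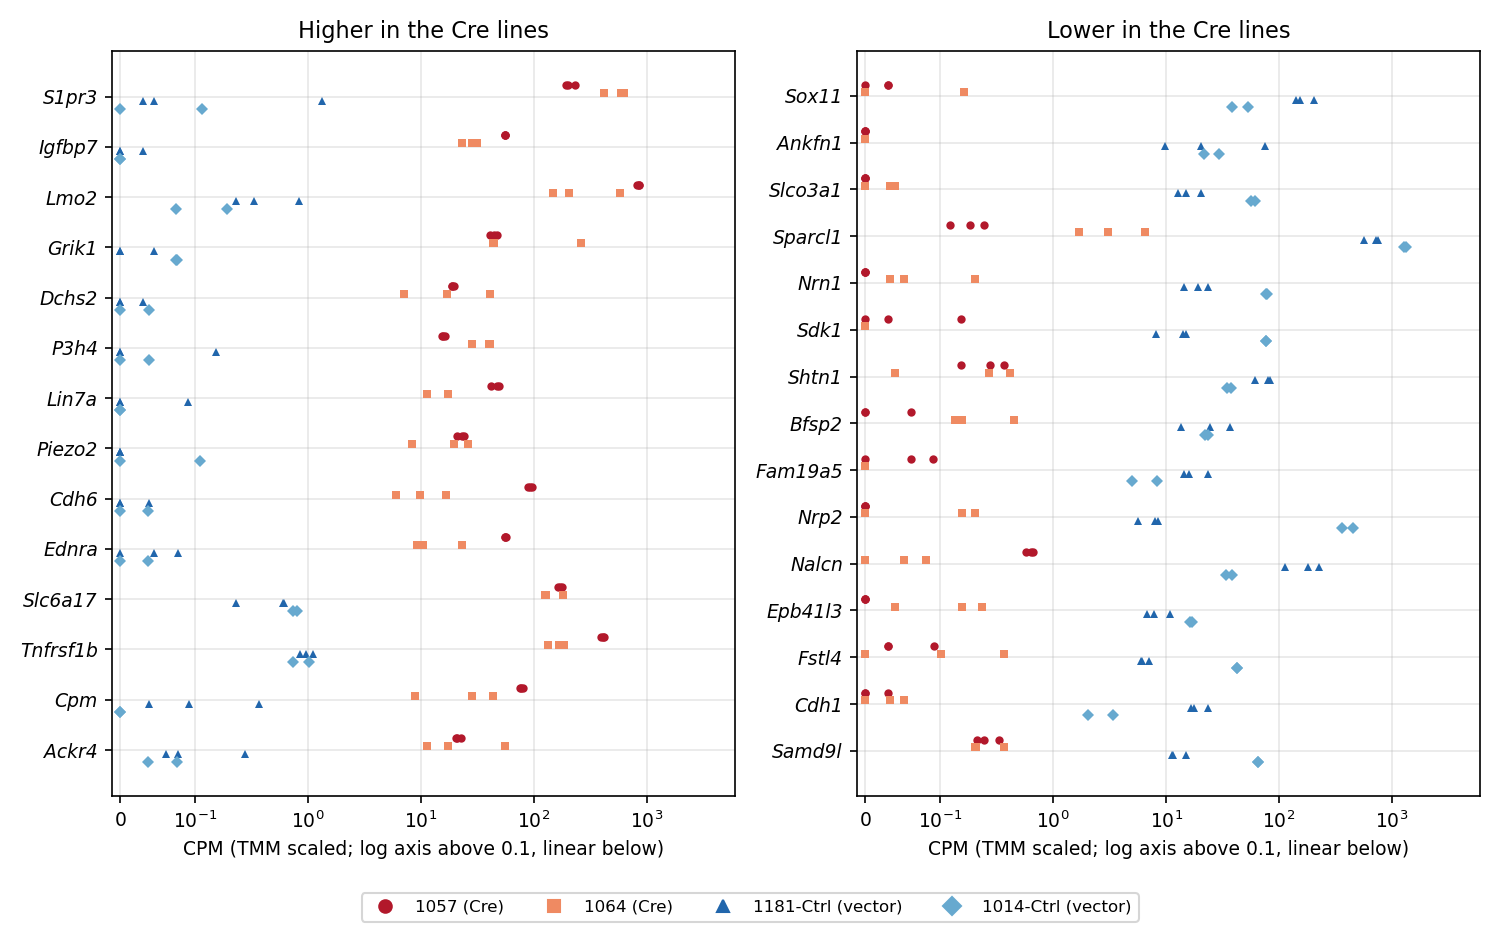
Level in each library of the protein-coding genes with the widest gap, 14 higher and 15 lower in the Cre lines (CPM, log axis above 0.1 and linear below, one marker per library, shape and colour giving the line). In the left panel every Cre-line library lies above every vector-line library, and in the right panel every one lies below.

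The 15 genes with the widest gap downward are described in the same way. Sox11 (chromosome 12, 27334264 to 27342574), a transcription factor of neural progenitors, was at 0, 0.0306 and 0.0303 CPM in 1057, 0.162, 0 and 0 CPM in 1064, 203, 152 and 140.1 CPM in 1181-Ctrl, and 38.7 and 52.8 CPM in 1014-Ctrl. The Cre lines held at most 4 reads of it in any library. Ankfn1 had 0 CPM in all 3 libraries of 1057, 0 CPM in all 3 libraries of 1064, 75.3, 9.82 and 20.3 CPM in 1181-Ctrl, and 29.5 and 21.8 CPM in 1014-Ctrl. Nrn1, a small membrane-anchored protein that promotes neurite growth, was at 0 CPM in all 3 libraries of 1057, 0.202, 0.0518 and 0.0335 CPM in 1064, 14.4, 23.5 and 19.1 CPM in 1181-Ctrl, and 77.6 and 77.2 CPM in 1014-Ctrl. Of its exon bases 22.3% overlap a gene on the other strand. Nrp2, a co-receptor for semaphorins and vascular growth factors, was at 0 CPM in all 3 libraries of 1057, 0, 0.155 and 0.201 CPM in 1064, 7.91, 5.63 and 8.49 CPM in 1181-Ctrl, and 362 and 453 CPM in 1014-Ctrl. The vector lines themselves did not overlap for Nrp2, 1014-Ctrl being far above 1181-Ctrl. Sdk1, a homophilic adhesion molecule of synapses, averaged 0.0608 ± 0.0804 CPM in 1057, no reads in 1064, 12.5 ± 3.74 CPM in 1181-Ctrl and 76.7 ± 0.656 CPM in 1014-Ctrl. Shtn1, which links actin flow to adhesion in growing axons, averaged 0.263 ± 0.106 CPM in 1057, 0.241 ± 0.189 CPM in 1064, 74.6 ± 11.5 CPM in 1181-Ctrl and 36.2 ± 1.82 CPM in 1014-Ctrl, a mean log2 fold change of -7.69 (-8.30 to -7.08 over the 4 pairs, largest edgeR adjusted p = 5.2e-07). Epb41l3, a protein of the membrane skeleton, averaged no reads in 1057, 0.144 ± 0.0977 CPM in 1064, 8.5 ± 2.15 CPM in 1181-Ctrl and 16.6 ± 0.595 CPM in 1014-Ctrl.

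Sparcl1, a secreted matricellular protein, had the highest level of these genes in the vector lines. It was at 0.182, 0.122 and 0.243 CPM in 1057, 6.56, 1.71 and 3.05 CPM in 1064, 761, 716 and 569 CPM in 1181-Ctrl, and 1346 and 1291 CPM in 1014-Ctrl. The pair differences in Sparcl1 ran from -12.78 to -7.48 on the log2 scale (largest edgeR adjusted p = 3.38e-07), widest for 1057. Fstl4, a follistatin-like protein, averaged 0.0508 ± 0.0354 CPM in 1057, 0.155 ± 0.188 CPM in 1064, 6.39 ± 0.536 CPM in 1181-Ctrl and 42.2 ± 0.152 CPM in 1014-Ctrl. Fam19a5, a small secreted protein, averaged 0.0506 ± 0.0463 CPM in 1057, no reads in 1064, 18 ± 5.01 CPM in 1181-Ctrl and 6.67 ± 2.34 CPM in 1014-Ctrl. Nalcn, a sodium leak channel, was at 0.578, 0.642 and 0.667 CPM in 1057, 0.0809, 0.0518 and 0 CPM in 1064, 180.3, 113 and 226 CPM in 1181-Ctrl, and 33.8 and 38.1 CPM in 1014-Ctrl. Slco3a1, an organic anion transporter, averaged no reads in 1057, 0.0247 ± 0.0216 CPM in 1064, 16 ± 3.84 CPM in 1181-Ctrl and 58.9 ± 2.91 CPM in 1014-Ctrl. Bfsp2, a filament protein known from the lens, averaged 0.0202 ± 0.035 CPM in 1057, 0.245 ± 0.174 CPM in 1064, 25 ± 11.6 CPM in 1181-Ctrl and 22.8 ± 0.782 CPM in 1014-Ctrl. Samd9l, an interferon-inducible growth suppressor, was at 0.213, 0.244 and 0.334 CPM in 1057, 0.364, 0.207 and 0.201 CPM in 1064, 11.2, 11.6 and 14.9 CPM in 1181-Ctrl, and 64.7 and 65.1 CPM in 1014-Ctrl, a mean log2 fold change of -6.75 (-7.95 to -5.55 over the 4 pairs, largest edgeR adjusted p = 6.44e-08). Cdh1 itself completes the 15.

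The 250 bases upstream of the start of 4 of these genes are printed to show the letters beside the levels, 2 genes for each direction. They come from RefSeq windows on GRCm38.p6, in lower case with the motifs searched in capitals. S1pr3 is at chr13:51408368-51408617 on the plus strand, Tnfrsf1b at chr4:145246871-145247120 on the minus strand, Sox11 at chr12:27342719-27342968 on the minus strand and Samd9l at chr6:3399572-3399821 on the minus strand.
S1pr3: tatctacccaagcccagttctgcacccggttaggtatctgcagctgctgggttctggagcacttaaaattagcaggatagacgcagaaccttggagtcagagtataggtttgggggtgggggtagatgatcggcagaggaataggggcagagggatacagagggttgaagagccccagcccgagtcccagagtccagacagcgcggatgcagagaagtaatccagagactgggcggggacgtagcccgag
Tnfrsf1b: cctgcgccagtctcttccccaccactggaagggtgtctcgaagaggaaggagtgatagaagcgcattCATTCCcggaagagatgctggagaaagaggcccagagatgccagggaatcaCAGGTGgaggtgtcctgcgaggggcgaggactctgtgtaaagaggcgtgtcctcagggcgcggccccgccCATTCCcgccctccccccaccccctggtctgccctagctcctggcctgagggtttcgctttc
Sox11: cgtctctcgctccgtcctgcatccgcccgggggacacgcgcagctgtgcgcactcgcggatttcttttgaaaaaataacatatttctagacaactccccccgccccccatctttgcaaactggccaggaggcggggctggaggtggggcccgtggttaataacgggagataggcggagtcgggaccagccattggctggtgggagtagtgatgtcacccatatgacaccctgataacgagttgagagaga
Samd9l: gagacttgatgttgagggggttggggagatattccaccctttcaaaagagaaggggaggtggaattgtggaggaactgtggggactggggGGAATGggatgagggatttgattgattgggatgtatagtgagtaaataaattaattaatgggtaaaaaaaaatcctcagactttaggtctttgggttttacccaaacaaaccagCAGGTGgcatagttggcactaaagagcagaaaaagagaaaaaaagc
Motifs were searched on both strands: CTTTGA (TCF and LEF factors), CAGGTG (E-box bound by SNAIL and ZEB repressors), CATGTG (E-box bound by MITF), the palindromic oestrogen response element and GGAATG (TEAD factors). Of 32851 windows in the RefSeq table, 13.8% held CTTTGA, 17.2% CAGGTG, 12.3% CATGTG, 0.0639% the oestrogen response element and 12.6% GGAATG. A window was found for 10 of the 15 higher genes (12 windows), of which 0, 2, 1, 0 and 1 held the motifs in that order. For the lower genes 8 of 15 had one (10 windows), of which 1, 3, 0, 0 and 1 held them. The Tnfrsf1b window held CAGGTG and 2 copies of GGAATG, and the Samd9l window one copy of each. A match is a description of the sequence and says nothing about binding.

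Of 22 listed cadherins and adherens junction genes, 16 passed the filter on low counts. Of these, 2 were higher (Jup and Cdh6) and 1 was lower (Cdh1), against 4.13% and 3.41% of all tested genes, and the median member differed by 0.49 on the log2 scale. Jup encodes plakoglobin, the catenin shared by adherens junctions and desmosomes, and was at 331, 342 and 329.8 CPM in 1057, 362, 485 and 369 CPM in 1064, 32.8, 69.2 and 69 CPM in 1181-Ctrl, and 2.05 and 3.98 CPM in 1014-Ctrl. The Jup difference was smallest for 1057 against 1181-Ctrl (2.55) and the Cre lines were close to each other. Ctnnb1, encoding β-catenin, averaged 1207 ± 23.4 CPM in 1057, 1548 ± 26.5 CPM in 1064, 1410 ± 88.2 CPM in 1181-Ctrl and 2080 ± 100.4 CPM in 1014-Ctrl, with pair differences from -0.79 to 0.14. Ctnna1, encoding α-catenin, averaged 452 CPM in 1057, 417 CPM in 1064, 509 CPM in 1181-Ctrl and 489 CPM in 1014-Ctrl, and the actin linker Vcl averaged 231 CPM in 1057, 440.4 CPM in 1064, 123 CPM in 1181-Ctrl and 232 CPM in 1014-Ctrl. None of these 3 passed the test in all pairs.

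Of 30 listed epithelial junction genes and keratins, 11 passed the filter. Of these, 1 was higher (9.09%) and 2 were lower (18.2%), against 4.13% and 3.41% of all tested genes. F11r, the junctional adhesion molecule A, was at 27.1, 27.1 and 27.5 CPM in 1057, 41.5, 72.9 and 98.1 CPM in 1064, 0.115, 0.333 and 0.137 CPM in 1181-Ctrl, and 0.038 and 0.0738 CPM in 1014-Ctrl (largest edgeR adjusted p over the pairs = 1.12e-06). It was the member with the widest separation, and its direction was opposite to that of Cdh1. Tjp3, a tight junction scaffold, averaged 1.98 ± 0.249 CPM in 1057, 1.8 ± 0.588 CPM in 1064, 8.02 ± 4.34 CPM in 1181-Ctrl and 5.89 ± 0.271 CPM in 1014-Ctrl. Without 1014-Ctrl mock 3 the largest adjusted p of Tjp3 was 0.0592. Cgn, encoding cingulin, was at 0.0305 CPM in 1057, 0.0112 CPM in 1064, 0.144 CPM in 1181-Ctrl and 0.973 CPM in 1014-Ctrl and held at most 2 reads in the Cre lines. Its call was lost without 1057 mock 1, 1057 mock 3 or 1181-Ctrl mock 2 (largest adjusted p 0.072, 0.0806 and 0.0916), and with 1014-Ctrl mock 2 kept (0.0511). Among mesenchymal genes and transcription factors of epithelial-mesenchymal transition, 2 of 15 tested were higher (13.3%) and 0 lower. Sparc, a collagen-binding matricellular protein, was at 5666, 5234 and 5228 CPM in 1057, 3855, 3943 and 4033 CPM in 1064, 106, 171 and 193 CPM in 1181-Ctrl, and 1097 and 824 CPM in 1014-Ctrl, a mean log2 fold change of 3.57 (2.04 to 5.10 over the 4 pairs, largest edgeR adjusted p = 9.67e-05). Tcf4, an E-box-binding factor, averaged 617 ± 16.3 CPM in 1057, 390.3 ± 109 CPM in 1064, 70.2 ± 13.7 CPM in 1181-Ctrl and 86.6 ± 16.6 CPM in 1014-Ctrl, a mean log2 fold change of 2.65 (2.17 to 3.14 over the 4 pairs, largest edgeR adjusted p = 6.93e-05). Vim, encoding vimentin, averaged 666 CPM in 1057, 2044 CPM in 1064, 2159 CPM in 1181-Ctrl and 1351 CPM in 1014-Ctrl, Fn1, encoding fibronectin, 182 CPM in 1057, 322 CPM in 1064, 289 CPM in 1181-Ctrl and 804 CPM in 1014-Ctrl, and Zeb2 173 CPM in 1057, 573 CPM in 1064, 386 CPM in 1181-Ctrl and 267 CPM in 1014-Ctrl. None of these 3 kept a direction over the line pairs.

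**Figure D3:**
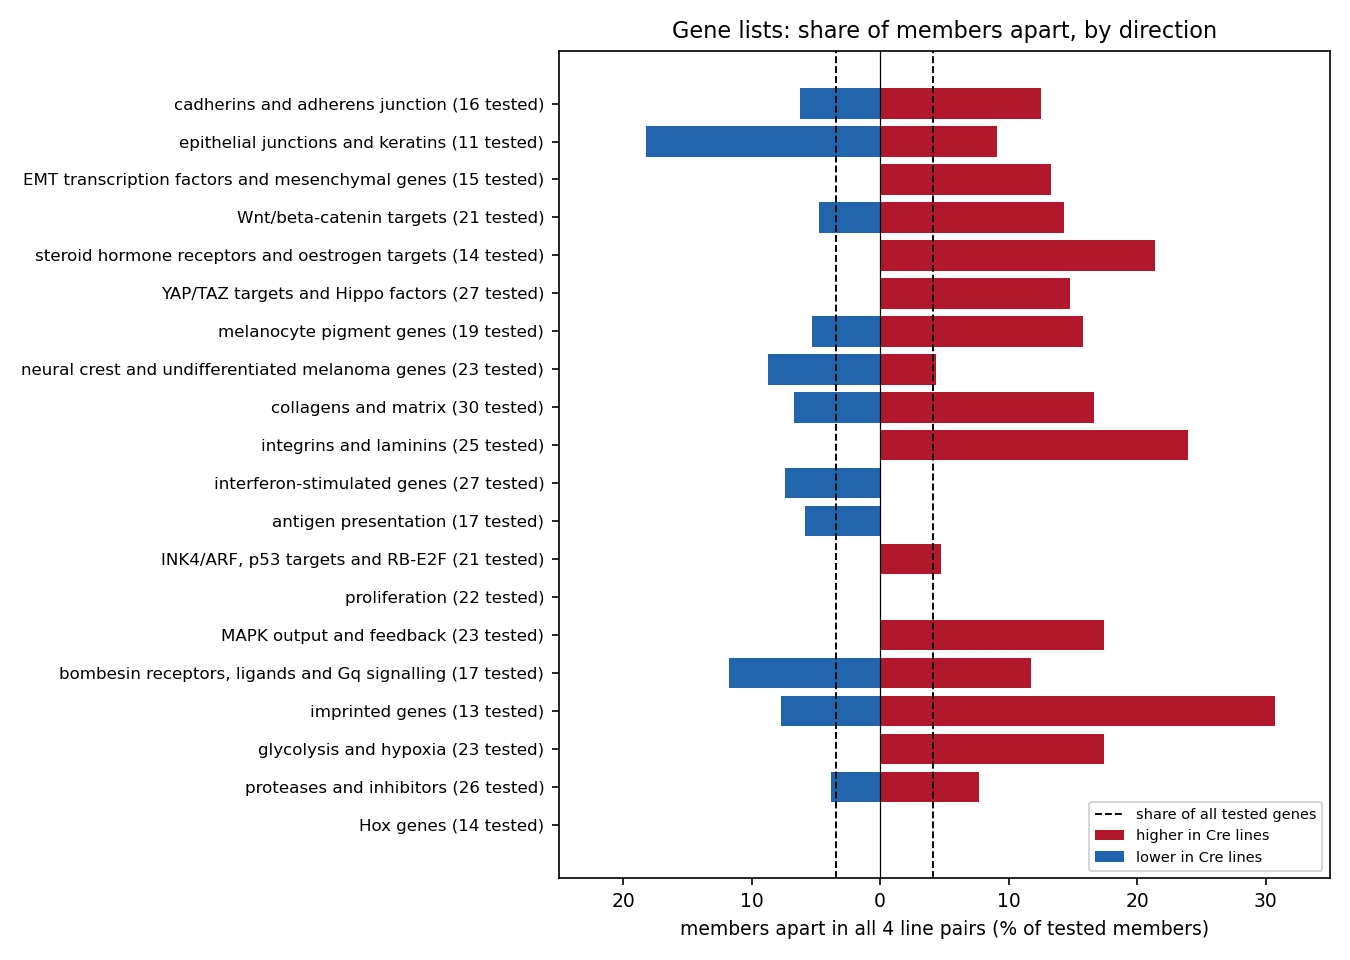
Share of the tested genes of each of 20 lists that were separated (percent of tested members, higher in the Cre lines to the right and lower to the left, with the number tested beside each name). The dashed lines mark the shares among all tested genes, 4.13% higher and 3.41% lower. Integrins and laminins reach 24% on the right with no bar on the left, interferon-stimulated genes have a bar on the left alone, and proliferation and Hox genes have none.

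Wnt target genes differed more against 1014-Ctrl than against 1181-Ctrl. Of 21 tested, Nkd1, Nkd2 and Notum were higher (14.3%) and Fgf9 was lower (4.76%), against 4.13% and 3.41% of all tested genes. The median member differed by 1.86. The medians were 0.82 and 0.19 against 1181-Ctrl (1057 and 1064, respectively) and 2.09 and 1.69 against 1014-Ctrl. Nkd1, a feedback inhibitor that binds Dishevelled, was at 395, 419 and 401 CPM in 1057, 54.7, 128 and 54.8 CPM in 1064, 20.7, 44.7 and 29.1 CPM in 1181-Ctrl, and 0 and 0.0369 CPM in 1014-Ctrl. All Cre-line libraries exceeded all vector-line libraries, but the difference between 1064 and 1181-Ctrl was 1.33, falling to 0.81 without 1064 mock 2. With 1014-Ctrl mock 2 kept the largest adjusted p of Nkd1 was 0.453. Nkd2, its paralog, averaged 70.7 ± 0.935 CPM in 1057, 205 ± 38.9 CPM in 1064, 17.2 ± 9.6 CPM in 1181-Ctrl and 27 ± 11.8 CPM in 1014-Ctrl. Leaving out any of the 1057 libraries gave a largest adjusted p of 0.0509 to 0.0538 for Nkd2, and leaving out 1014-Ctrl mock 3 gave 0.196. Notum, a secreted enzyme that inactivates Wnt proteins, averaged 31.8 ± 1.12 CPM in 1057, 2.6 ± 0.178 CPM in 1064, 0.512 ± 0.269 CPM in 1181-Ctrl and no reads in 1014-Ctrl, and 38.1% of its exon bases overlap a gene on the other strand. Fgf9, a growth factor, had at most 1 read in any Cre-line library and averaged 0.0101 ± 0.0175 CPM in 1057, 0.0173 ± 0.0299 CPM in 1064, 0.332 ± 0.13 CPM in 1181-Ctrl and 0.577 ± 0.332 CPM in 1014-Ctrl.

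Of other β-catenin targets, Lef1, Sp5 and Apcdd1 were nearly silent in 1014-Ctrl, whereas Axin2 and Ccnd1 were not. Axin2, the most widely used readout of the pathway, averaged 116 ± 6.1 CPM in 1057, 106 ± 37.2 CPM in 1064, 95.4 ± 18.4 CPM in 1181-Ctrl and 45.5 ± 8.74 CPM in 1014-Ctrl. Its differences were 0.29 and 0.15 against 1181-Ctrl and 1.35 and 1.21 against 1014-Ctrl. Lef1, a DNA-binding partner of β-catenin, averaged 57.1 ± 2.15 CPM in 1057, 24.8 ± 2.68 CPM in 1064, 21.1 ± 3.79 CPM in 1181-Ctrl and 0.0749 ± 0.00161 CPM in 1014-Ctrl. Sp5 averaged 18.9 ± 3.56 CPM in 1057, 9.39 ± 7.1 CPM in 1064, 10.7 ± 7.1 CPM in 1181-Ctrl and no reads in 1014-Ctrl and Apcdd1, a Wnt inhibitor at the membrane, 78.5 ± 5.49 CPM in 1057, 0.152 ± 0.0646 CPM in 1064, 1.68 ± 0.165 CPM in 1181-Ctrl and no reads in 1014-Ctrl. None of them was separated. For Lef1 the difference of 1064 to 1181-Ctrl was 0.23 (edgeR adjusted p = 0.174), and for Sp5 and Apcdd1 the level of 1181-Ctrl lay between those of the Cre lines. Ccnd1, encoding cyclin D1, averaged 2857 CPM in 1057, 6436 CPM in 1064, 3808 CPM in 1181-Ctrl and 1991 CPM in 1014-Ctrl.

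Of 14 tested steroid receptor genes and oestrogen targets, 3 were higher (21.4%) and 0 lower, against 4.13% and 3.41% of all tested genes. The median was 0.001. Esr1, encoding oestrogen receptor α, was at 15.6, 14.7 and 15.9 CPM in 1057, 8.42, 6.68 and 8.01 CPM in 1064, 0.0382, 0.0303 and 0.183 CPM in 1181-Ctrl, and 1.94 and 1.84 CPM in 1014-Ctrl. The Cre-line libraries all lay above 5 CPM and the vector-line libraries below 2.5 CPM, with a smallest pair difference of 2.02 on the log2 scale (largest edgeR adjusted p = 0.000263). On log2(TPM + 1) the call was not met (smallest pair difference 0.88). Igfbp4, an oestrogen-responsive binding protein of insulin-like growth factors, averaged 1532 ± 15.5 CPM in 1057, 687 ± 380.4 CPM in 1064, 227 ± 36 CPM in 1181-Ctrl and 6.9 ± 1.1 CPM in 1014-Ctrl. Its call was lost when 1014-Ctrl mock 2 was kept (largest adjusted p 0.193). Nrip1, a corepressor of nuclear receptors, averaged 72.6 ± 0.56 CPM in 1057, 92.8 ± 10.2 CPM in 1064, 29.5 ± 2.64 CPM in 1181-Ctrl and 32.6 ± 8.65 CPM in 1014-Ctrl, and its smallest pair difference was 0.90 without 1014-Ctrl mock 1. Pgr, the progesterone receptor, was low at 0.923 ± 0.0317 CPM in 1057, 0.319 ± 0.149 CPM in 1064, 0.0839 ± 0.0976 CPM in 1181-Ctrl and no reads in 1014-Ctrl and was not separated (largest adjusted p = 0.0562 by edgeR). Gper1, a membrane oestrogen receptor, averaged 0.0813 CPM in 1057, 0.361 CPM in 1064, 0.0811 CPM in 1181-Ctrl and 0.501 CPM in 1014-Ctrl, and Esr2 did not pass the filter.

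Of 17 tested genes for bombesin receptors, ligands and Gq signalling, 2 were higher (11.8%), 2 were lower (11.8%) and 13 were not separated. Of all tested genes 4.13% were higher and 3.41% lower. Itpr2 and Itpr3 encode calcium channels opened by inositol trisphosphate, and they went opposite ways. Itpr2 was at 156, 152 and 155 CPM in 1057, 87.4, 107 and 78.1 CPM in 1064, 15.2, 29.7 and 27.9 CPM in 1181-Ctrl, and 35.4 and 28 CPM in 1014-Ctrl, a mean log2 fold change of 2.09 (1.52 to 2.67 over the 4 pairs, largest edgeR adjusted p = 0.000736). Itpr3 was at 12.3, 12 and 12.9 CPM in 1057, 13.3, 7.2 and 6.37 CPM in 1064, 39.9, 44.3 and 74.6 CPM in 1181-Ctrl, and 153 and 135 CPM in 1014-Ctrl, a mean log2 fold change of -3.05 (-4.00 to -2.09 over the 4 pairs, largest edgeR adjusted p = 0.000126). Prkca, a protein kinase C activated by diacylglycerol, was at 24.3, 23.9 and 24.7 CPM in 1057, 22.3, 18.4 and 27.1 CPM in 1064, 127, 224 and 176 CPM in 1181-Ctrl, and 86.1 and 97.7 CPM in 1014-Ctrl, a mean log2 fold change of -2.44 (-2.96 to -1.92 over the 4 pairs, largest edgeR adjusted p = 3.53e-05). For all 3 the libraries of the sides did not overlap. Rgs16, which shortens G protein signalling, was low at 0.426 ± 0.0531 CPM in 1057, 0.642 ± 0.288 CPM in 1064, no reads in 1181-Ctrl and 0.019 ± 0.0269 CPM in 1014-Ctrl. Gnaq, the α subunit that couples GRPR to phospholipase C, averaged 203 ± 3.57 CPM in 1057, 158 ± 24.9 CPM in 1064, 107 ± 6.93 CPM in 1181-Ctrl and 105 ± 3.78 CPM in 1014-Ctrl, with pair differences of 0.56 to 0.95, under the size required. Itpr1 averaged 179.8 CPM in 1057, 258 CPM in 1064, 71.9 CPM in 1181-Ctrl and 90.4 CPM in 1014-Ctrl and Gna11 179 CPM in 1057, 155 CPM in 1064, 134 CPM in 1181-Ctrl and 174 CPM in 1014-Ctrl.

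Of the YAP and TAZ genes, 4 of 27 tested were higher (14.8%) and 0 lower, against 4.13% and 3.41% of all tested genes. The median was 0.55. Both line means were higher in the Cre lines for 14 (51.9%) and lower for 3 (11.1%) of the 27, against 22.1% and 22% of all tested genes. In 1057, 9 and 11 members were higher than in 1181-Ctrl and 1014-Ctrl, and 5 were lower in each pair. In 1064, 11 and 9 were higher and 3 and 1 lower. Among all tested genes, single pairs differed in 12.9% to 19.2% per direction. The members described next came from the naming rule, which takes separated members first. Myof, a membrane repair protein, was at 309.9, 288 and 299 CPM in 1057, 288, 223 and 456 CPM in 1064, 6.46, 18 and 16.3 CPM in 1181-Ctrl, and 64.6 and 60 CPM in 1014-Ctrl, a mean log2 fold change of 3.42 (2.26 to 4.57 over the 4 pairs, largest edgeR adjusted p = 0.000826). Gadd45a, a stress-response gene, averaged 217 ± 1.91 CPM in 1057, 99.9 ± 64 CPM in 1064, 7.48 ± 3.89 CPM in 1181-Ctrl and 17.2 ± 0.769 CPM in 1014-Ctrl, and Igfbp3 averaged 33.8 ± 0.541 CPM in 1057, 12.1 ± 5.67 CPM in 1064, 0.066 ± 0.0318 CPM in 1181-Ctrl and no reads in 1014-Ctrl. Wwtr1, encoding TAZ, averaged 277 ± 8.15 CPM in 1057, 266 ± 27.5 CPM in 1064, 71.5 ± 10.3 CPM in 1181-Ctrl and 128 ± 3.86 CPM in 1014-Ctrl. Without 1064 mock 2 its smallest pair difference was 0.96. Yap1 averaged 247 ± 5.39 CPM in 1057, 221 ± 26.2 CPM in 1064, 176 ± 12.3 CPM in 1181-Ctrl and 178 ± 5.19 CPM in 1014-Ctrl, and although the libraries did not overlap its pair differences were only 0.32 to 0.49. Amotl1, a binder of YAP, averaged 1661 CPM in 1057, 639 CPM in 1064, 269.9 CPM in 1181-Ctrl and 491 CPM in 1014-Ctrl and Tead1 231 CPM in 1057, 330.1 CPM in 1064, 136 CPM in 1181-Ctrl and 191 CPM in 1014-Ctrl, both with libraries apart but with 1 or more pairs under the size required.

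Feedback genes of the MAP kinase pathway, which all lines drive through NRAS, included 4 of 23 tested that were higher (17.4%) and 0 lower. The shares of all tested genes were 4.13% and 3.41%, and the median of the list was 0.19. Etv5, an ETS factor induced by ERK, was at 1706, 1663 and 1615 CPM in 1057, 729, 1657 and 929.7 CPM in 1064, 408, 378 and 334 CPM in 1181-Ctrl, and 252 and 209 CPM in 1014-Ctrl, a mean log2 fold change of 2.21 (1.57 to 2.85 over the 4 pairs, largest edgeR adjusted p = 0.000385). Spry1, a Sprouty inhibitor of receptor signalling, averaged 90.2 ± 4.21 CPM in 1057, 106 ± 31.9 CPM in 1064, 26.3 ± 7.19 CPM in 1181-Ctrl and 11.9 ± 4.25 CPM in 1014-Ctrl, a mean log2 fold change of 2.46 (1.78 to 3.15 over the 4 pairs, largest edgeR adjusted p = 0.000181). Dusp5, a nuclear ERK phosphatase, averaged 43.2 ± 1.3 CPM in 1057, 18.3 ± 2.77 CPM in 1064, 1.91 ± 0.907 CPM in 1181-Ctrl and 4.13 ± 0.618 CPM in 1014-Ctrl, a mean log2 fold change of 3.33 (2.15 to 4.50 over the 4 pairs, largest edgeR adjusted p = 0.000404). Of the exon bases of Spry1 24.4% and of Dusp5 22.1% overlap a gene on the other strand. Epha2, an ephrin receptor, was at 133, 135 and 129 CPM in 1057, 7.12, 2.33 and 5.63 CPM in 1064, 0.42, 0.242 and 0.274 CPM in 1181-Ctrl, and 1.63 and 2.32 CPM in 1014-Ctrl. Its level in 1064 was a small part of that in 1057, and without 1014-Ctrl mock 1 the largest adjusted p was 0.108. The widely used ERK readouts Dusp6 and Dusp4 averaged 903 CPM in 1057, 622 CPM in 1064, 864 CPM in 1181-Ctrl and 278 CPM in 1014-Ctrl and 1062 CPM in 1057, 562 CPM in 1064, 1316 CPM in 1181-Ctrl and 381 CPM in 1014-Ctrl, respectively, and were not separated.

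Pigment genes varied widely between lines of the same side. Of 19 tested, 3 were higher (15.8%) and 1 was lower (5.26%), against 4.13% and 3.41% of all tested genes. Mlana, a melanosome protein and melanoma antigen, was at 2800, 2601 and 2540 CPM in 1057, 1658, 921 and 908 CPM in 1064, 126, 86.1 and 70.2 CPM in 1181-Ctrl, and 332 and 290.1 CPM in 1014-Ctrl, a mean log2 fold change of 3.36 (1.90 to 4.81 over the 4 pairs, largest edgeR adjusted p = 0.000606). Slc24a5, a melanosomal ion exchanger, averaged 804 ± 31.1 CPM in 1057, 1038 ± 337 CPM in 1064, 113 ± 42 CPM in 1181-Ctrl and 229 ± 9.13 CPM in 1014-Ctrl, a mean log2 fold change of 2.50 (1.81 to 3.19 over the 4 pairs, largest edgeR adjusted p = 0.000787), with 39.5% of its exon bases overlapping a gene on the other strand. Ednrb, the endothelin B receptor of melanoblasts, was at 246, 236 and 236 CPM in 1057, 13.6, 33.5 and 6.51 CPM in 1064, 5.5, 4.06 and 4.06 CPM in 1181-Ctrl, and 0.304 and 0.479 CPM in 1014-Ctrl. Like Ednra it was higher in both Cre lines, but 1064 had far less than 1057, and with 1014-Ctrl mock 2 kept the call was lost (smallest pair difference -1.11). Rab27a, which tethers melanosomes for transport, went the other way at 39.8, 38 and 38.1 CPM in 1057, 71.6, 80.7 and 55.1 CPM in 1064, 271, 258 and 273 CPM in 1181-Ctrl, and 227 and 241 CPM in 1014-Ctrl, a mean log2 fold change of -2.28 (-2.79 to -1.76 over the 4 pairs, largest edgeR adjusted p = 3.88e-06). Dct averaged 2018 CPM in 1057, 4325 CPM in 1064, 242 CPM in 1181-Ctrl and 21488 CPM in 1014-Ctrl, and Pmel 195 CPM in 1057, 3899 CPM in 1064, 2730 CPM in 1181-Ctrl and 5155 CPM in 1014-Ctrl. For Dct the vector lines enclosed the Cre lines, and for Pmel 1057 stood below the other 3 lines.

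Among neural crest and undifferentiated melanoma genes 1 of 23 tested was higher (Tcf4, above, 4.35%) and 2 were lower (8.7%). The shares of all tested genes were 4.13% and 3.41%. Sox2, a factor of neural progenitors, was at 0.0912, 0.153 and 0.212 CPM in 1057, 0 CPM in all 3 libraries of 1064, 52.6, 34.9 and 81.5 CPM in 1181-Ctrl, and 2.28 and 2.73 CPM in 1014-Ctrl. The 1181-Ctrl libraries held most of it and 1014-Ctrl little. Loxl2, a collagen and elastin crosslinking enzyme, averaged 0.0203 ± 0.0176 CPM in 1057, no reads in 1064, 5.76 ± 0.772 CPM in 1181-Ctrl and 4.02 ± 0.364 CPM in 1014-Ctrl. Erbb3, a neuregulin receptor, averaged 196 ± 7.59 CPM in 1057, 258 ± 109 CPM in 1064, 497 ± 106 CPM in 1181-Ctrl and 613 ± 31.6 CPM in 1014-Ctrl, with libraries apart but a smallest pair difference of -0.95. Pax3 averaged 251 CPM in 1057, 331 CPM in 1064, 321 CPM in 1181-Ctrl and 273 CPM in 1014-Ctrl and Nes 469 CPM in 1057, 185 CPM in 1064, 266 CPM in 1181-Ctrl and 324 CPM in 1014-Ctrl. S100b, a calcium-binding protein of glia and melanocytes, was at 4.02 to 19.3 CPM in the Cre lines and 115 to 274 CPM in the vector lines. The glial markers Mbp and Gfap were at no more than 1.29 CPM in any library.

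Matrix genes differed between the Cre lines themselves. Of 30 tested collagens and matrix genes, 5 were higher (16.7%) and 2 lower (6.67%), against 4.13% and 3.41% of all tested genes. In 1064, 21 and 18 members were higher than in 1181-Ctrl and 1014-Ctrl (4 lower in each), with medians of 3.0 and 2.36. In 1057, 6 and 7 were higher and 9 and 13 lower, with medians of -0.17 and -1.31. Single pairs of lines differed in 12.9% to 19.2% of all tested genes per direction. Thbs1, a matricellular glycoprotein, was high in both Cre lines at 85.9, 96.8 and 93.9 CPM in 1057, 43.6, 91.3 and 52.4 CPM in 1064, 2.79, 3.73 and 3.42 CPM in 1181-Ctrl, and 8.44 and 13.4 CPM in 1014-Ctrl, a mean log2 fold change of 3.65 (2.51 to 4.79 over the 4 pairs, largest edgeR adjusted p = 0.000119). Loxl3, a lysyl oxidase, averaged 421 ± 10.6 CPM in 1057, 581 ± 14.7 CPM in 1064, 186 ± 40.3 CPM in 1181-Ctrl and 137 ± 2.1 CPM in 1014-Ctrl, a mean log2 fold change of 1.63 (1.18 to 2.08 over the 4 pairs, largest edgeR adjusted p = 3.51e-05). The basement membrane chains Col4a1 and Col4a2 were low, at 1.25 CPM in 1057, 2.84 CPM in 1064, 0.0584 CPM in 1181-Ctrl and 0.0184 CPM in 1014-Ctrl and at 2.43 CPM in 1057, 1.61 CPM in 1064, 0.0255 CPM in 1181-Ctrl and 0.112 CPM in 1014-Ctrl, respectively, and Col8a1 averaged 12.6 CPM in 1057, 2.24 CPM in 1064, 0 CPM in 1181-Ctrl and 0.0939 CPM in 1014-Ctrl. Col27a1 and Col5a1 were lower in the Cre lines, at 0.0914 ± 0.0612 CPM in 1057, 0.0763 ± 0.0813 CPM in 1064, 18.2 ± 6.17 CPM in 1181-Ctrl and 2.19 ± 0.391 CPM in 1014-Ctrl and at 1.06 ± 0.132 CPM in 1057, 3.54 ± 0.611 CPM in 1064, 10.9 ± 5.88 CPM in 1181-Ctrl and 9.07 ± 4.01 CPM in 1014-Ctrl, respectively. The call for Col5a1 was lost without 1064 mock 2 (largest adjusted p 0.0509) or 1014-Ctrl mock 3 (0.212). The fibroblast markers Col1a1, Col3a1, Dcn and Lum are also members of this list, so they are no separate reading of it. The summed level of 6 fibroblast markers was 3.85 to 23.4 CPM in the Cre lines and 1.10 to 4.65 CPM in the vector lines. Lum was at 0 in all libraries and Dcn at no more than 0.266 CPM. Col1a1 was at 5.70 to 17.7 CPM in 1064 and at most 0.0607 CPM in 1057. Pdgfra, which is not in the list, was at 3.79 to 4.61 CPM in 1057 and 3.08 to 3.39 CPM in 1014-Ctrl. The part of these markers in the matrix genes was not tested.

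Integrins and laminins had the largest share of separated genes upward after the imprinted genes, 6 of 25 tested (24%), with 0 lower. The shares of all tested genes were 4.13% and 3.41%, and the median of the list was 1.07. Both line means were higher in the Cre lines for 15 of the 25 (60%) and lower for 4 (16%), against 22.1% and 22% of all tested genes. In 1057, 12 and 9 members were higher than in 1181-Ctrl and 1014-Ctrl, and 7 and 4 lower. In 1064, 17 and 15 were higher and 1 lower in each pair. Among all tested genes, single pairs differed in 12.9% to 19.2% per direction. The lists were chosen with earlier results of these data known, so their rank by share is a description. Itga8, a receptor for RGD-containing matrix proteins, was at 321, 314 and 348 CPM in 1057, 198, 137 and 234 CPM in 1064, 34.5, 79.3 and 52.5 CPM in 1181-Ctrl, and 44.7 and 23.6 CPM in 1014-Ctrl, a mean log2 fold change of 2.52 (1.77 to 3.26 over the 4 pairs, largest edgeR adjusted p = 0.00074). Lamb1, a laminin β chain, averaged 191 ± 1.3 CPM in 1057, 186 ± 24.4 CPM in 1064, 5.97 ± 0.883 CPM in 1181-Ctrl and 81.9 ± 13.7 CPM in 1014-Ctrl. Lama1, the α1 chain of early basement membranes, averaged 10.5 ± 0.322 CPM in 1057, 0.964 ± 0.183 CPM in 1064, 0.0127 ± 0.0221 CPM in 1181-Ctrl and no reads in 1014-Ctrl. The collagen receptors Itga1 and Itga2 averaged 34.9 ± 2.58 CPM in 1057, 45.4 ± 5.59 CPM in 1064, 4.45 ± 3.7 CPM in 1181-Ctrl and 11.2 ± 4.9 CPM in 1014-Ctrl and 7.95 ± 0.638 CPM in 1057, 7.74 ± 3.05 CPM in 1064, 2.98 ± 1.07 CPM in 1181-Ctrl and 3.52 ± 0.0226 CPM in 1014-Ctrl, respectively, and Itga9, a receptor for tenascin, averaged 141 ± 2.32 CPM in 1057, 125 ± 46.8 CPM in 1064, 14.4 ± 0.432 CPM in 1181-Ctrl and 58 ± 8.63 CPM in 1014-Ctrl. Calls for the last 3 were lost without some single libraries. For Itga1 the largest adjusted p was 0.0548 without 1057 mock 3 and 0.176 without 1014-Ctrl mock 3, with mean log2 fold changes of 2.46 and 2.29. For Itga2 it was 0.0662, 0.106 and 0.108 without 1064 mock 2, 1014-Ctrl mock 1 and 1014-Ctrl mock 3, with mean log2 fold changes of 1.09, 1.28 and 1.27. For Itga9 the smallest pair difference was 0.76 without 1064 mock 2 and 0.96 without 1014-Ctrl mock 1. On log2(TPM + 1) 2 members of the list were separated. Itgb1, the shared β1 subunit, averaged 1105 ± 34.7 CPM in 1057, 1167 ± 236 CPM in 1064, 828 ± 76.6 CPM in 1181-Ctrl and 918 ± 52.8 CPM in 1014-Ctrl, with libraries apart but differences of 0.27 to 0.49.

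**Figure D4:**
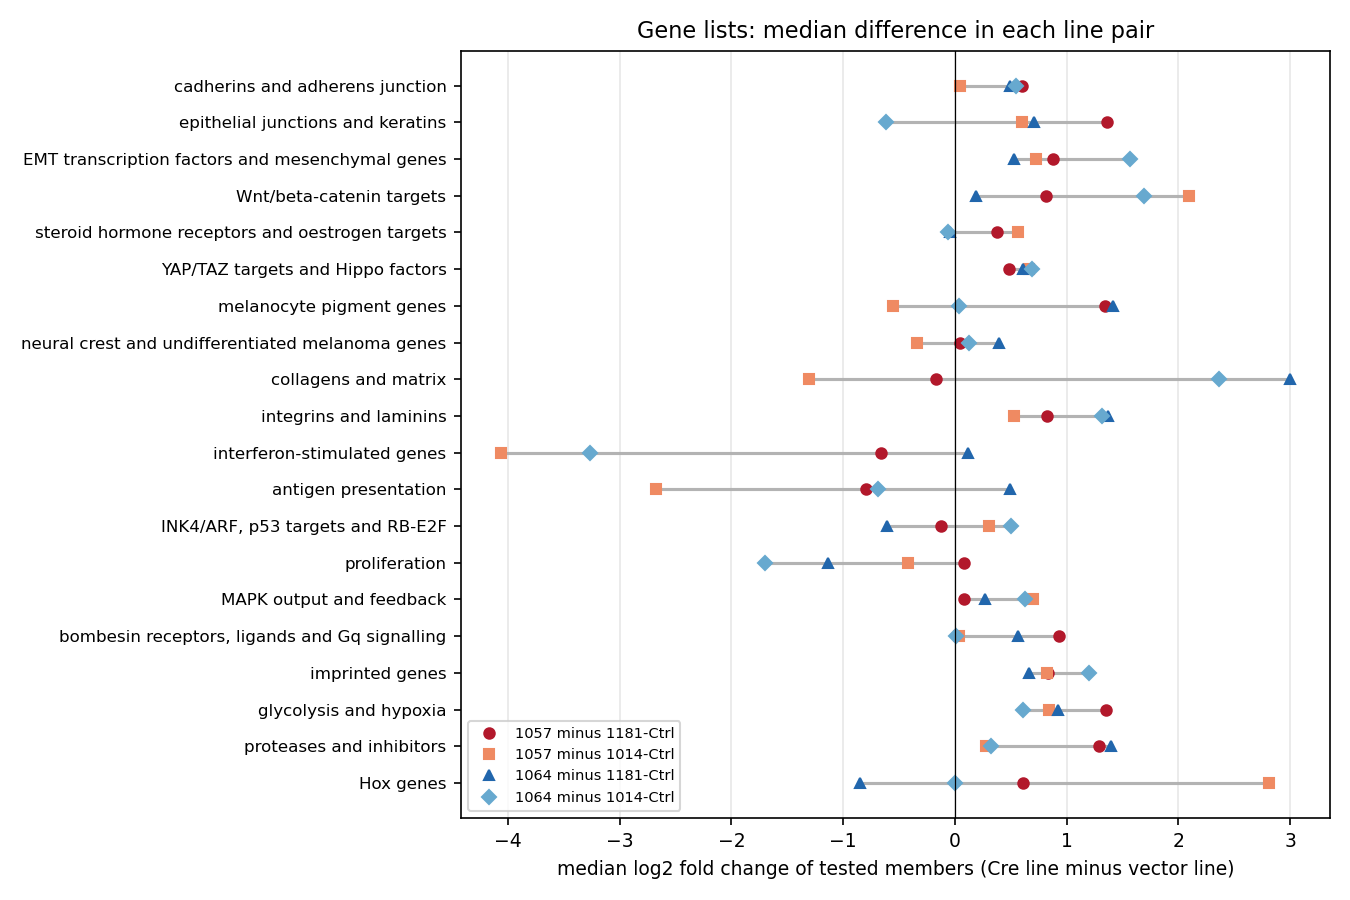
Median log2 fold change of the tested genes of each list in each of the 4 pairs of a Cre line and a vector line (one marker per pair, the grey bar spanning the 4). Collagens and matrix genes lie below 0 for both pairs with 1057 and above 0 for both with 1064, while interferon-stimulated genes are at -4.07 and -3.26 against 1014-Ctrl and at -0.67 and 0.12 against 1181-Ctrl.

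Proteases and their inhibitors held 2 of 26 tested genes higher (7.69%) and 1 lower (3.85%), near the 4.13% and 3.41% of all tested genes. Serpinf1, encoding the secreted anti-angiogenic factor PEDF, was at 840.1, 817 and 836 CPM in 1057, 563, 1080 and 787 CPM in 1064, 19.3, 25 and 36.5 CPM in 1181-Ctrl, and 52.3 and 86.5 CPM in 1014-Ctrl, a mean log2 fold change of 4.25 (3.54 to 4.95 over the 4 pairs, largest edgeR adjusted p = 2.97e-05). Mmp16, a membrane-bound metalloproteinase, averaged 24.2 ± 2.12 CPM in 1057, 50.5 ± 21.4 CPM in 1064, 6.36 ± 3.16 CPM in 1181-Ctrl and 5.95 ± 1.37 CPM in 1014-Ctrl, a mean log2 fold change of 2.50 (1.92 to 3.08 over the 4 pairs, largest edgeR adjusted p = 0.00278). Timp2, an inhibitor of metalloproteinases, was lower at 34.9, 35.3 and 32.9 CPM in 1057, 277, 196 and 129 CPM in 1064, 593, 481 and 619 CPM in 1181-Ctrl, and 631 and 645 CPM in 1014-Ctrl, a mean log2 fold change of -2.85 (-4.21 to -1.49 over the 4 pairs, largest edgeR adjusted p = 0.00029). Mmp14, which acts together with TIMP2 at the cell surface, averaged 499 CPM in 1057, 197 CPM in 1064, 227 CPM in 1181-Ctrl and 430.1 CPM in 1014-Ctrl and was not separated.

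Interferon-stimulated genes were lower mainly against 1014-Ctrl. Of 27 tested, 0 were higher and 2 lower (Parp14 and Rsad2, 7.41%), against 4.13% and 3.41% of all tested genes. The median was -1.75. Against 1014-Ctrl, 27 members were lower in 1057 and 25 in 1064. Against 1181-Ctrl, 7 were lower and 5 higher in 1057, and 2 were lower and 8 higher in 1064. Single pairs of lines differed in 12.9% to 19.2% of all tested genes per direction. Parp14, an ADP-ribosyltransferase, was at 0.182, 0.153 and 0.091 CPM in 1057, 0.162, 0 and 0.134 CPM in 1064, 5.62, 6.82 and 9 CPM in 1181-Ctrl, and 37.9 and 31.9 CPM in 1014-Ctrl, with a smallest pair difference of -5.61 (largest edgeR adjusted p = 1.48e-06). Rsad2, encoding the antiviral enzyme viperin, averaged 1.5 ± 0.0894 CPM in 1057, 0.363 ± 0.0393 CPM in 1064, 3.83 ± 2.33 CPM in 1181-Ctrl and 15 ± 3.37 CPM in 1014-Ctrl, and its largest adjusted p was 0.0516 without 1181-Ctrl mock 2. Stat2, which carries the interferon signal to the nucleus, averaged 18.4 ± 1.12 CPM in 1057, 22.1 ± 1.66 CPM in 1064, 40.8 ± 10.1 CPM in 1181-Ctrl and 62.5 ± 5.07 CPM in 1014-Ctrl, with libraries apart but a smallest pair difference of -0.88. Ifi27 averaged 32.8 CPM in 1057, 78.1 CPM in 1064, 51.7 CPM in 1181-Ctrl and 200.4 CPM in 1014-Ctrl. Of 17 tested antigen presentation genes 0 were higher and 1 was lower (5.88%). H2-Q4, a class I gene whose reads are hard to tell from those of its close relatives, averaged 0.304 ± 0.0796 CPM in 1057, 0.317 ± 0.359 CPM in 1064, 4.06 ± 1.25 CPM in 1181-Ctrl and 32.7 ± 1.2 CPM in 1014-Ctrl. B2m, the light chain of class I molecules, averaged 271 CPM in 1057, 406 CPM in 1064, 219 CPM in 1181-Ctrl and 656 CPM in 1014-Ctrl. The summed level of 7 immune cell markers overlapped between sides (8.30 to 29.7 CPM in the Cre lines and 3.87 to 45.8 CPM in the vector lines), with 5 of the 7 under 1 CPM in every library.

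No proliferation gene of 22 tested was separated in either direction, against 4.13% higher and 3.41% lower among all tested genes. The median was -0.62. In 1064 against 1014-Ctrl 8 members were lower, and no other pair had a call. In that pair 12.9% of all tested genes were lower. Mki67, a marker of cycling cells, was at 82.1, 197 and 252 CPM in 1057, 209, 47.7 and 26 CPM in 1064, 616, 238 and 53.9 CPM in 1181-Ctrl, and 522 and 593 CPM in 1014-Ctrl. Both Cre lines averaged less than both vector lines, with 1064 lowest. Replicates of 1064 and of 1181-Ctrl varied widely, so the absence of separated genes does not show equal levels. Top2a averaged 264 ± 16.5 CPM in 1057, 105 ± 100.1 CPM in 1064, 399 ± 396 CPM in 1181-Ctrl and 569 ± 59.7 CPM in 1014-Ctrl, and Pcna, the replication clamp, 179.7 ± 8.08 CPM in 1057, 153 ± 53 CPM in 1064, 175 ± 128 CPM in 1181-Ctrl and 193 ± 14.2 CPM in 1014-Ctrl. Of 21 genes of the INK4 and ARF locus, p53 targets and the RB pathway, 1 was higher (4.76%) and 0 lower. This is near the 4.13% higher among all tested genes, of which 3.41% were lower. Plk2, a p53-responsive kinase, averaged 373 ± 11 CPM in 1057, 131 ± 36.7 CPM in 1064, 59.6 ± 8.67 CPM in 1181-Ctrl and 55.9 ± 8.3 CPM in 1014-Ctrl, with a smallest pair difference of 0.91 without 1064 mock 3. Cdkn1a, encoding p21, averaged 295 CPM in 1057, 161 CPM in 1064, 343 CPM in 1181-Ctrl and 89.8 CPM in 1014-Ctrl, and Ccng1 285 CPM in 1057, 244 CPM in 1064, 640.0 CPM in 1181-Ctrl and 82.8 CPM in 1014-Ctrl, so the vector lines lay on both sides of the Cre lines for these p53 targets.

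Glycolysis and hypoxia genes had 4 of 23 tested higher (17.4%) and 0 lower, against 4.13% and 3.41% of all tested genes. The median was 0.85. Both line means were higher in the Cre lines for 11 (47.8%) and lower for 1 (4.35%), against 22.1% and 22% of all tested genes. Slc2a3, a high-affinity glucose transporter, was at 6.93, 6.42 and 4.91 CPM in 1057, 51.5, 56.1 and 183 CPM in 1064, 0.0382, 0.0909 and 0.32 CPM in 1181-Ctrl, and 0.038 and 0.0369 CPM in 1014-Ctrl. All libraries lay apart, though 1064 had far more than 1057. Hk2, an inducible hexokinase, was at 107, 103 and 96.8 CPM in 1057, 72.2, 58.9 and 181 CPM in 1064, 52.7, 47.7 and 28.7 CPM in 1181-Ctrl, and 32.6 and 41.7 CPM in 1014-Ctrl, a mean log2 fold change of 1.37 (1.25 to 1.49 over the 4 pairs, largest edgeR adjusted p = 0.0164). Without 1014-Ctrl mock 1, 1014-Ctrl mock 3 or 1181-Ctrl mock 3 its largest adjusted p was 0.116, 0.06 and 0.0542, and without 1064 mock 3 its smallest pair difference was 0.62. Slc16a3, a lactate exporter, averaged 0.304 ± 0.11 CPM in 1057, 7.04 ± 1.4 CPM in 1064, no reads in 1181-Ctrl and 0.0565 ± 0.0277 CPM in 1014-Ctrl. Egln3, a prolyl hydroxylase induced by hypoxia, averaged 11.6 ± 0.716 CPM in 1057, 0.654 ± 0.265 CPM in 1064, no reads in 1181-Ctrl and 0.0951 ± 0.134 CPM in 1014-Ctrl. Without 1014-Ctrl mock 3 the largest adjusted p was 0.0843 for Slc16a3 and 0.0507 for Egln3. The abundant enzymes Pkm, Gapdh and Eno1 averaged 2674 CPM in 1057, 2392 CPM in 1064, 1043 CPM in 1181-Ctrl and 1395 CPM in 1014-Ctrl, 1618 CPM in 1057, 2805 CPM in 1064, 1266 CPM in 1181-Ctrl and 1205 CPM in 1014-Ctrl and 3107 CPM in 1057, 1516 CPM in 1064, 1218 CPM in 1181-Ctrl and 1213 CPM in 1014-Ctrl, respectively. Libraries were apart for Pkm and Gapdh, but the differences were under the size required in at least 1 pair. On log2(TPM + 1) 1 member of the list was separated.

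Imprinted genes, which are read from one parental copy, held 4 of 13 tested higher (30.8%) and 1 lower (7.69%). The shares of all tested genes were 4.13% and 3.41%. Igf2r, which clears IGF2 from the surface, was at 1148, 1131 and 1133 CPM in 1057, 455, 762 and 643 CPM in 1064, 197, 207 and 209.6 CPM in 1181-Ctrl, and 110.1 and 92.2 CPM in 1014-Ctrl, a mean log2 fold change of 2.54 (1.60 to 3.49 over the 4 pairs, largest edgeR adjusted p = 1.74e-05). Plagl1, a zinc finger factor, averaged 163 ± 4.76 CPM in 1057, 146 ± 63.7 CPM in 1064, 0.0837 ± 0.035 CPM in 1181-Ctrl and 51.4 ± 7.45 CPM in 1014-Ctrl, and it was nearly silent in 1181-Ctrl alone. Grb10, an adaptor that restrains growth factor receptors, was lower at 88.9, 85.8 and 85.7 CPM in 1057, 0.324, 0.104 and 0.369 CPM in 1064, 186, 284 and 219 CPM in 1181-Ctrl, and 597 and 535 CPM in 1014-Ctrl. Within the Cre lines Grb10 differed more than between 1057 and 1181-Ctrl, 1064 being close to 0. Peg10 averaged 201 ± 10.4 CPM in 1057, 58.4 ± 7.85 CPM in 1064, 28.4 ± 4.61 CPM in 1181-Ctrl and 15.5 ± 1.73 CPM in 1014-Ctrl, with a smallest pair difference of 0.94, 0.98 and 0.96 without 1064 mock 3, 1181-Ctrl mock 2 and 1181-Ctrl mock 3. Snrpn, of which 27.3% of exon bases overlap a gene on the same strand, averaged 0.0913 ± 0.0307 CPM in 1057, 4.25 ± 0.697 CPM in 1064, no reads in 1181-Ctrl and no reads in 1014-Ctrl. Its largest adjusted p was 0.0822 and 0.0879 without 1014-Ctrl mock 1 and 3, and 0.156 with 1014-Ctrl mock 2 kept. Of 14 tested Hox genes none was separated, against 4.13% higher and 3.41% lower among all tested genes. The positional gene Hoxb2 was at 0.0101 CPM in 1057, 0 CPM in 1064, 0 CPM in 1181-Ctrl and 23.1 CPM in 1014-Ctrl. Hoxb4 was at 0.416 CPM in 1057, 0.0308 CPM in 1064, 0.526 CPM in 1181-Ctrl and 21.7 CPM in 1014-Ctrl. These 2 genes marked out 1014-Ctrl, but the list as a whole did not. Against 1181-Ctrl, 6 Hox genes were higher and 5 lower in 1057, and 1 was higher and 7 lower in 1064. Against 1014-Ctrl, 6 were higher and 3 lower in 1057, and 5 were higher and 6 lower in 1064. Among all tested genes, single pairs of lines differed in 12.9% to 19.2% per direction.

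Separated genes lay on all 19 autosomes, with uneven shares. Among all tested genes 4.13% were higher and 3.41% lower. On chromosome 12, 45 of 533 tested genes (8.44%) were higher and 7 (1.31%) lower, and the median gene was higher in each of the 4 line pairs, by 0.48, 0.51, 0.69 and 0.72. On chromosome 16, 31 of 450 (6.89%) were higher and 9 (2%) lower, with pair medians of 0.02 to 0.65. On chromosome 10, 27 of 758 (3.56%) were higher and 41 (5.41%) lower. Within 10 Mb of Cdh1 on chromosome 8, of 132 tested genes 8 were higher (6.06%) and 4 lower (3.03%). The higher ones included Cdh5, encoding the cadherin of blood vessels, with 2.87 to 5.30 CPM in the Cre lines and 0 in all vector-line libraries. The other endothelial markers (Pecam1, Kdr, Tie1 and Cldn5) were at or under 0.457 CPM in every library, Cldn5 at 0. Within 10 Mb of Cdkn2a on chromosome 4, of 57 tested genes 2 were higher (3.51%, Acer2 and Gm12606) and 2 lower (3.51%, Mpdz and Elavl2). These shares were near those of all tested genes.

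The same 4 lines were also sequenced after 4 h with 1 µM RC, in libraries that were not used above. They come from the same lines and so do not replicate the genotype. Of the 612 genes higher in mock, 608 kept the order of the line means in RC and 550 (89.9%) were again separated. Of the 505 lower genes, 502 kept the order and 443 (87.7%) were again separated, and 0 genes were separated in the opposite direction. Over all tested genes in the RC libraries 4.77% were separated upward and 4.19% downward. S1pr3 averaged 363 ± 6.5 CPM in 1057, 757 ± 191 CPM in 1064, 0.625 ± 0.688 CPM in 1181-Ctrl and 0.0124 ± 0.0215 CPM in 1014-Ctrl with RC, and Sox11 averaged 0.055 ± 0.0222 CPM in 1057, 0.0387 ± 0.0387 CPM in 1064, 156 ± 31.7 CPM in 1181-Ctrl and 47.6 ± 9.1 CPM in 1014-Ctrl. Jup averaged 334 ± 7.9 CPM in 1057, 403 ± 72.7 CPM in 1064, 60.1 ± 21.9 CPM in 1181-Ctrl and 3.42 ± 0.922 CPM in 1014-Ctrl, close to its mock levels in each line.

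**Figure D5:**
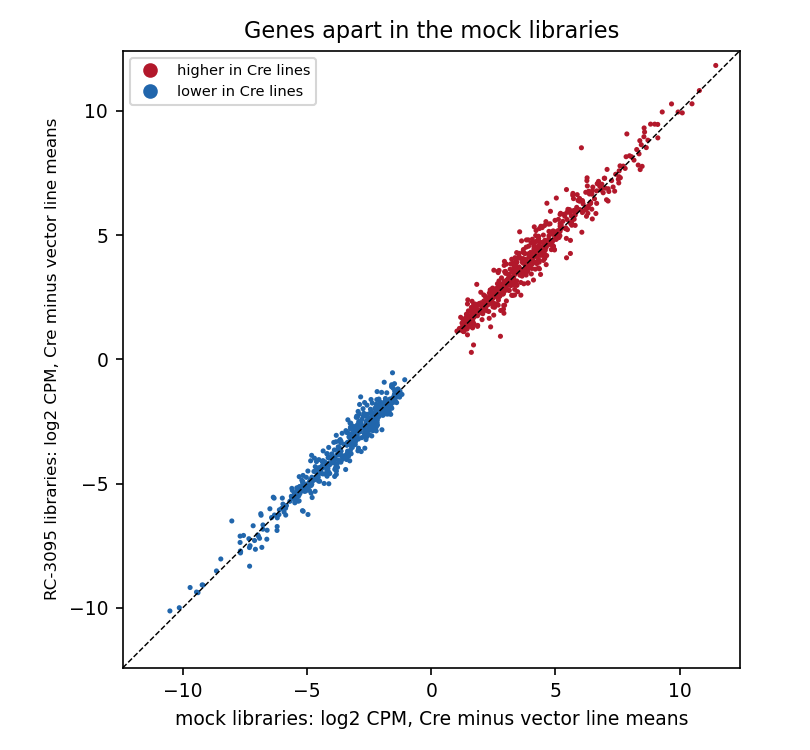
Difference between the sides for each separated gene in mock libraries (horizontal axis) and RC libraries (vertical axis), one point per gene and the dashed line marking equality, both as log2 of the Cre-line mean minus the vector-line mean. Points lie along the diagonal, and no gene separated in mock is separated in the opposite direction in RC.

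The transfected derivatives 1181-Grpr and 1014-Grpr express Grpr without Cre and were mock-treated alike. They give the level of the named genes in transfected cells that hold Grpr. For 1181-Grpr the background is not that of 1181-Ctrl alone, as its Xist and Cdkn2a levels at the end of this paragraph show. S1pr3 averaged 4.06 ± 2.02 CPM in 1181-Grpr and no reads in 1014-Grpr, Tnfrsf1b 1.58 ± 0.864 CPM in 1181-Grpr and 0.633 ± 0.0862 CPM in 1014-Grpr and Jup 52.5 ± 11.3 CPM in 1181-Grpr and 1.67 ± 0.332 CPM in 1014-Grpr. Sox11 averaged 201 ± 15.8 CPM in 1181-Grpr and 38.5 ± 4.41 CPM in 1014-Grpr, and Sparcl1 1081 ± 148 CPM in 1181-Grpr and 1623 ± 179 CPM in 1014-Grpr. Lmo2 averaged 15.4 ± 8.08 CPM in 1181-Grpr and 0.0616 ± 0.0276 CPM in 1014-Grpr, against 0.462 CPM in 1181-Ctrl and 0.132 CPM in 1014-Ctrl. Esr1 averaged 1.31 ± 0.549 CPM in 1181-Grpr and 2.87 ± 0.464 CPM in 1014-Grpr, against 0.0837 CPM in 1181-Ctrl and 1.89 CPM in 1014-Ctrl. For Lmo2 and Esr1 1181-Grpr thus lay above 1181-Ctrl and below both Cre lines. Nkd1 averaged 45.2 ± 11.4 CPM in 1181-Grpr and 0.04 ± 0.0455 CPM in 1014-Grpr. Prkca averaged 119 ± 6.7 CPM in 1181-Grpr and 84.2 ± 11.8 CPM in 1014-Grpr. Libraries of 1181-Grpr also held Xist at 205 to 238 CPM and Cdkn2a above the level of 1181-Ctrl, so this line differs from 1181-Ctrl by more than its plasmid.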

How the data were processed

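RNA of 72 libraries of 6 mouse melanoma lines was sequenced, and the 11 mock libraries described above were compared. The authors prepared strand-specific polyA libraries, aligned the reads with STAR to GRCm38.p5 (mm10) with a GENCODE annotation, and deposited raw counts per gene, as well as TPM values, used only as an alternative. A decimal comma in the TPM columns of 1057 was read as a point. FastQC 0.11.5 is named in the submitters' processing notes. The counting program's strand setting is not given in the sources used here. Positions are from GENCODE M21 (GRCm38), which holds 50376 of the 50600 gene identifiers in the count table.

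Counts of autosomal genes kept by filterByExpr were scaled by TMM and tested with edgeR 4.0.16 (R 4.3.3, limma 3.58.1, DESeq2 1.42.0), with library totals over all genes. CPM were computed without a prior count, and log2 values with a prior count of 1. The line comparison used counts summed per line, and the pair tests used 1 fit of all 11 libraries. Totals gave 0.083 to 0.152 CPM as the floor of 3 counts. Steps were tested on simulated data.

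Named genes are those that check the labels, the 15 protein-coding genes with the largest gap in each direction among those separated in all 4 pairs, with all libraries apart and a mean of 10 CPM or more on the higher side, up to 8 separated members of each list with up to 3 abundant others, and genes of the study's questions. Of these, 1 gene and 2 glial markers are not reported here. Members and lists were chosen with earlier results of these data known. Alternatives were DESeq2's size factors and Wald test, no filter, limma, limma-voom with the line as a block, the adjusted p alone, the replicate number as a block, TPM, leaving out each library or line, and keeping 1014-Ctrl mock 2.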

Additional observations from a re-analysis of the deposited data

Results flagged for a closer look

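Signals in libraries outside the comparison were above those of the libraries compared with them. The library labelled 1014-Ctrl mock 2 held the Y-linked Ddx3y at 67.7 CPM of the raw total and Grpr at 50.6 CPM, both at 0 in the other mock libraries of its line, and Cdh1 at 23.9 CPM, where the others reached 3.51 CPM. In the 3 mock libraries of 1181-Grpr, whose label is male, Xist lay between 205 and 238 CPM, against at most 0.710 CPM in the mock libraries of 1181-Ctrl.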

How the results depend on the processing

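With lines as units the count of called genes was 0 in 21 of 24 alternatives, and 158 without the filter on low counts (96 higher, 62 lower), 1034 with DESeq2's Wald test and 280 with limma-voom and the line as a random block (within-line correlation 0.792). Without each replicate in turn it stayed at 0 (lowest 0, highest 0). Separated genes numbered 514 to 661 higher and 431 to 550 lower without each replicate, the lowest without 1014-Ctrl replicate 3 and the highest without 1064 replicate 1. Genes with line means apart numbered 3200 to 3467 higher and 3185 to 3478 lower, and genes with all libraries apart 1889 to 2079 and 1529 to 1760. The fitted log2 difference of Cdh1, which depends on the prior count because the Cre lines hold at most 1 read, was between -9.23 and -8.13. Leaving out a line leaves 2 pairs, so counts rise by construction. Separated genes were 1116 and 873 (higher and lower) without 1057, 1519 and 1501 without 1064, 1229 and 1222 without 1181-Ctrl, and 1387 and 1473 without 1014-Ctrl. Line means were apart for 4955 and 5185, 5321 and 5200, 5115 and 5147, and 5244 and 5245 in that order, and all libraries for 2955 and 2618, 3952 and 3350, 3434 and 3525, and 3090 and 3002. With the adjusted p alone 1317 were higher and 1019 lower. On log2(TPM + 1) the counts were 323 and 466 separated, 2013 and 5233 with line means apart, and 1025 and 2793 with all libraries apart. With library medians set to 0 (chosen after seeing the data) they were 513 and 240, 4317 and 2459, and 2564 and 1080. The cause of these shifts was not tested.

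With the replicate number as a block, 579 genes were higher and 484 lower, of which 566 and 460 were among the separated genes. Over 15 same-numbered pairs of libraries the correlation of deviations from the line means ran from -0.169 to 0.404 (median 0.037, 6 over 0.1, 8986 genes). Deviations within a line depend on each other, so these values do not settle whether the numbers pair the samples. DESeq2's Wald test gave 612 and 492. Of 89 named separated genes, 60 were separated under all 23 alternatives and 0 changed the sign of the mean over the pairs, while single pairs turned for Ednrb, Cgn and Fgf9 (values above). With 2 lines a side, the spread between lines rests on a single difference per side, which on the vector side also holds labelled differences in genotype and sex, and low-count genes near the floor carry wide errors.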
